A study of Mus musculus with 6 samples.

Results

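The plasma carriers made first by the yolk sac were examined on every probe set annotated to 1 of 8 gene symbols, which were Afp, Ttr and Rbp4, taken as fetal carriers, and Alb, Gc, Ahsg, Ambp and Spp2, taken as liver-stage carriers. The series table held 15 such probe sets of its 45101, covering 7 of the 8 genes, and Gc had none annotated to it alone and was not analysed here. Of the 15, 10 belonged to the 3 fetal carriers and 5 to 4 liver-stage carriers. Each of the 6 Affymetrix arrays measured RNA from 1 whole mouse embryo at embryonic day 9.5, and the groups were 3 RFC1-/- embryos and 3 RFC1+/+ embryos, with 1 of each from each of 3 litters. RFC1 (gene symbol Slc19a1) is the reduced folate carrier, and its targeted allele had been moved from a C57BL/6J hybrid stock to the inbred SWV background. All dams received subcutaneous folic acid at 25 mg/kg daily, so the treatment was shared by both groups. The labels describe the RFC1-/- embryos as having an open neural tube (craniorachiscisis) and no chorioallantoic fusion, and the RFC1+/+ littermates as normal in both respects, so genotype, malformation and any difference in developmental stage cannot be told apart. According to the methods, the extraembryonic membranes were set aside for genotyping and the RNA came from the embryo.

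The visceral endoderm is the outer epithelium of the yolk sac. Before the liver forms, it takes up nutrients from the maternal side and secretes the plasma proteins that carry lipids, vitamins and hormones to the embryo. The liver bud later takes over this synthesis, so alpha-fetoprotein, transthyretin and retinol binding protein are made early by visceral endoderm, whereas albumin and most other plasma proteins become abundant as hepatocytes mature. Ttr and Rbp4 remain products of the adult liver, and the division into fetal and liver-stage carriers used here refers to strong production by the early yolk sac.

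Values are log2 expression from RMA, on which a difference of 1 is a doubling, and levels of different probe sets are not compared with one another. A group mean was taken as not shown to lie above background when it did not exceed the 95th percentile of 83 probe sets for olfactory, vomeronasal and taste receptor genes, which lay between 5.02 and 5.37 on the 6 arrays. The lowest correlation of any pair of arrays was 0.984, and array medians ran from 5.43 to 5.49. The RFC1+/+ embryo of litter 1 stood apart in the summed level of a list of trophoblast and decidua markers. The sum was 11.41 in it and 8.60 and 9.13 in the other RFC1+/+ embryos. In the RFC1-/- embryos of litters 1, 2 and 3 it was 9.41, 9.83 and 10.49. Its height in that embryo rested largely on the decidual gene Prl8a2, which read 11.17, 5.68 and 6.66 in RFC1+/+ embryos. Plac1 of the same list read 8.02, 7.52 and 8.36 and did not set that embryo apart. Results are therefore also given without litter 1. Slc19a1 itself measured 9.11, 9.10 and 8.89 in RFC1+/+ and 9.97, 10.10 and 9.84 in RFC1-/- embryos on its brightest probe set, but no source used here names the part of the gene that this allele lacks, so these values check nothing about the genotypes.

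Afp, Ttr, Rbp4, Spp2 and Ambp rose in RFC1-/- embryos, whereas Alb and Ahsg stayed at background in both genotypes. Of the 15 probe sets, 11 were higher in RFC1-/- embryos, 0 were lower and 4 did not pass, at an adjusted p under 0.05 in limma with the litter as a block. Over all 45101 probe sets, 1.87% passed as higher and 0.882% as lower. The 11 rises ranged from 1.12 to 4.37 on the log2 scale, with adjusted p from 0.00285 to 0.0176. In each of the 11, every RFC1-/- embryo exceeded every RFC1+/+ embryo, an arrangement found in 9.81% of all probe sets. By gene, on the brightest probe set, 5 of 7 were higher and 0 lower, against 3.67% and 1.65% of the 18194 genes tested. The gene lists below were counted in the same fit, so these shares of all genes stand beside each of their counts. None of the 4 probe sets that did not pass reached an unadjusted p under 0.05, and the random-variance paired test of the methods did not examine them, since its variation filter removed them. The 5 genes that rose are among those the study listed from these same samples, so their count is not independent evidence of the direction. In whole embryos, a larger number of cells of a type and more RNA in each such cell cannot be told apart.

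**Figure D1:**
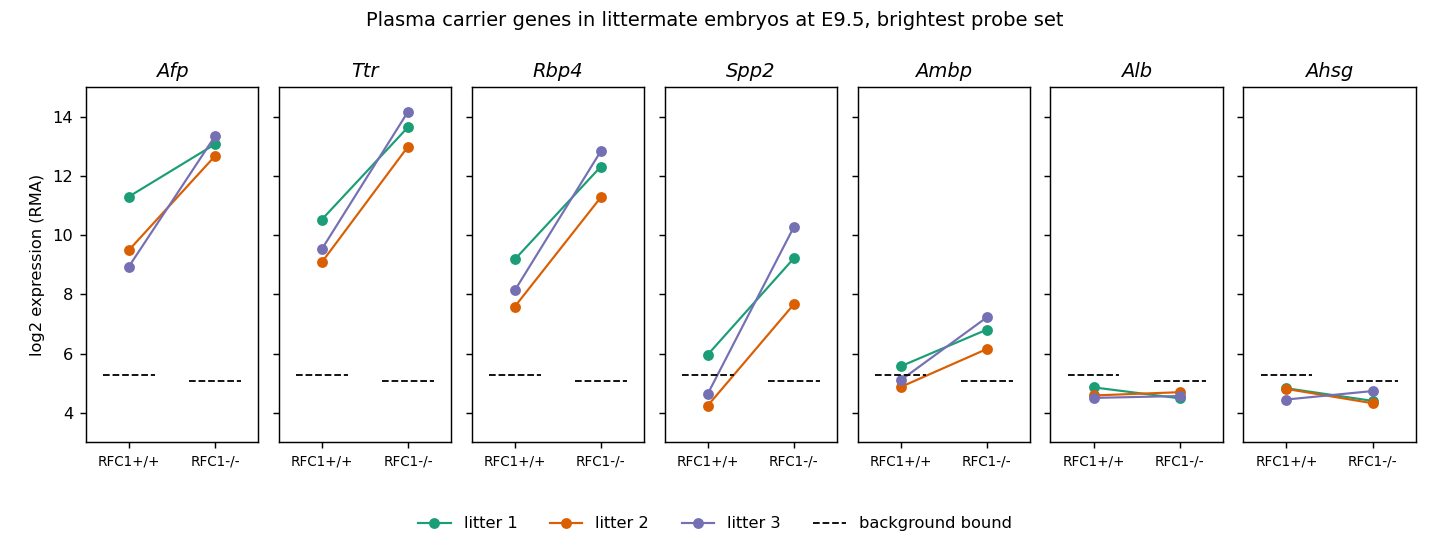
Log2 expression of the 7 measured carrier genes on the brightest probe set of each, with 1 point for each of the 6 embryos and a line joining littermates. Dashed lines mark the mean background bound of each genotype. The lines of Afp, Ttr, Rbp4, Spp2 and Ambp rise in all 3 litters, and every Alb and Ahsg point lies below the bound.

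Afp encodes alpha-fetoprotein, the main plasma protein of the fetus. On its brightest probe set (1416645_a_at), the RFC1+/+ embryos of litters 1, 2 and 3 measured 11.31, 9.5 and 8.94, and their RFC1-/- littermates 13.08, 12.68 and 13.35. The genotypes did not overlap, and the RFC1+/+ embryo of litter 1 lay nearest to the RFC1-/- embryos. The group means were 9.91 ± 1.24 and 13.04 ± 0.34 (SD, n = 3), a difference of 3.12 (SE 0.42) or 8.70-fold (limma adjusted p = 0.0153). Within litters the difference was 3.42-fold, 9.08-fold and 21.2-fold, so the size varied widely while the direction did not.

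The other Afp probe sets gave different sizes. Probe set 1416646_at read 9.91, 7.86 and 7.65 in RFC1+/+ and 13.03, 11.82 and 13.67 in RFC1-/- embryos, the largest difference of any carrier probe set at 4.37 (SE 0.47, 20.7-fold, limma adjusted p = 0.00877). In 1436879_x_at the rise was 2.78 (SE 0.39, limma adjusted p = 0.0176), and without litter 2 it did not pass (adjusted p = 0.0521). Probe set 1436881_x_at was dim. Its RFC1+/+ values of 5.10, 5.12 and 4.86 were not shown to lie above background, and its RFC1-/- values were 5.92, 6.18 and 6.33, which makes the rise at least 1.85-fold (limma adjusted p = 0.0129). Without litter 1 it narrowly missed the threshold (adjusted p = 0.0501). Probe set 1436880_at lay below background in both genotypes, with 4.62, 5.08 and 4.85 against 4.78, 4.44 and 4.53, and its difference of -0.27 (SE 0.16) did not pass (limma adjusted p = 0.517). By the manufacturer's naming, probe sets ending in _x_at hold probes that also match other sequences.

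Ttr encodes transthyretin, which carries thyroid hormone and binds the retinol carrier in plasma. Its brightest probe set (1454608_x_at) measured 10.53, 9.08 and 9.53 in the RFC1+/+ embryos of litters 1, 2 and 3. The RFC1-/- littermates measured 13.65, 12.99 and 14.17. Every RFC1-/- value exceeded the highest RFC1+/+ value by more than 2 units, and the group means were 9.71 ± 0.74 and 13.61 ± 0.59 (SD, n = 3). The rise was 3.89 (SE 0.25) or 14.8-fold, with limma adjusted p = 0.00334. All 4 Ttr probe sets passed, and their rises lay close together, from 3.89 to 4.17 or 14.8-fold to 18.0-fold, in contrast to the wide range of Afp.

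Rbp4 encodes the plasma carrier of retinol. It had a single probe set (1426225_at), which read 9.18, 7.58 and 8.13 in RFC1+/+ and 12.32, 11.28 and 12.84 in RFC1-/- embryos. The groups did not overlap, and litter 2 was lowest in both genotypes. Means were 8.30 ± 0.81 and 12.15 ± 0.79 (SD, n = 3), and the rise was 3.85 (SE 0.26) or 14.4-fold (limma adjusted p = 0.00368). Within litters Rbp4 rose by 3.14, 3.70 and 4.71 and Ttr by 3.12, 3.91 and 4.65.

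**Figure D2:**
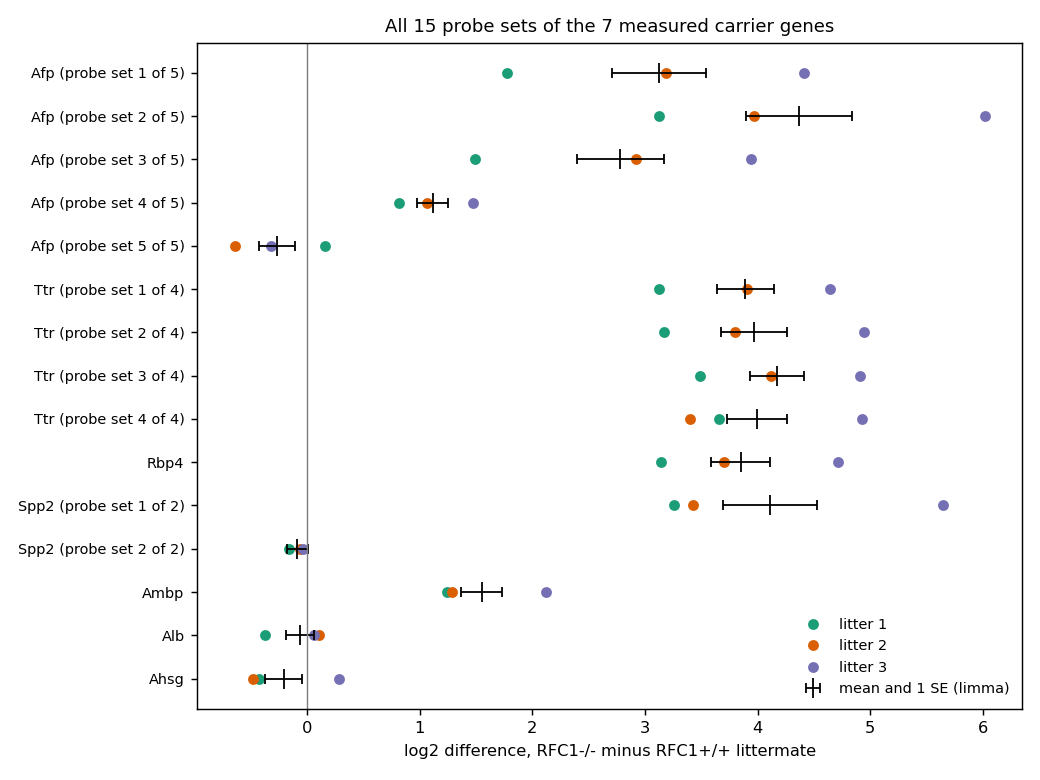
Log2 difference between each RFC1-/- embryo and its RFC1+/+ littermate on all 15 probe sets of the 7 measured carrier genes, with 1 point for each litter. Black ticks and bars show the mean and 1 SE from limma. The 4 Ttr probe sets and Rbp4 lie close together near 4, the Afp probe sets spread from -0.27 to 4.37, and 4 probe sets lie near 0.

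The liver-stage carriers fell into a group that rose and a group at background. Spp2, which encodes secreted phosphoprotein 24, a cystatin-like protein of plasma and bone, read 5.96, 4.24 and 4.63 in RFC1+/+ and 9.22, 7.66 and 10.28 in RFC1-/- embryos on its brighter probe set (1418916_a_at). Only the RFC1+/+ embryo of litter 1 exceeded the background bound of its array, whereas all 3 RFC1-/- embryos did. The means were 4.94 ± 0.90 and 9.05 ± 1.31 (SD, n = 3), a difference of 4.11 (SE 0.42), and the rise was at least 11.8-fold (limma adjusted p = 0.00775). The second Spp2 probe set (1446777_at) lay far below the bound, with 3.80, 3.71 and 3.73 against 3.65, 3.65 and 3.69. Its genotypes did not overlap, with RFC1-/- lower, as in 11.5% of all probe sets, but the difference of -0.09 did not pass (limma adjusted p = 0.792).

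Ambp encodes the precursor of alpha-1-microglobulin and bikunin, a carrier of small hydrophobic molecules and a protease inhibitor. It was dim in RFC1+/+ embryos, at 5.57, 4.87 and 5.10, with litter 1 alone above the bound. The RFC1-/- embryos read 6.81, 6.15 and 7.22, all above it and without overlap between genotypes. Means were 5.18 ± 0.36 and 6.73 ± 0.54 (SD, n = 3), and the difference of 1.55 (SE 0.18) corresponds to a rise of at least 2.58-fold (limma adjusted p = 0.0109).

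Alb encodes albumin, the main plasma protein after birth, and Ahsg encodes fetuin-A, a mineral-binding plasma protein. Alb read 4.86, 4.58 and 4.50 in RFC1+/+ and 4.49, 4.69 and 4.56 in RFC1-/- embryos. Ahsg read 4.83, 4.80 and 4.45 in RFC1+/+ and 4.40, 4.32 and 4.73 in RFC1-/- embryos. None of these 12 values exceeded the bound of its array, and the genotypes overlapped in both genes. The differences were -0.07 (SE 0.12, limma adjusted p = 0.895) for Alb and -0.21 (SE 0.16, adjusted p = 0.660) for Ahsg. No level above background was detectable for either gene on these arrays, which sets no ratio between the genotypes.

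The classes were set side by side as a description with no test. The median difference of Afp, Ttr and Rbp4 was 3.12, 3.70 and 4.65 in litters 1, 2 and 3, or 3.85 over mean differences. For Spp2, Ambp, Alb and Ahsg the calculated median was 0.43, 0.70 and 1.21, or 0.74 over mean differences. None of these 4 liver-stage carriers had an RFC1+/+ mean above the bound, so their differences are limited by background and the medians set no order between the classes. For Alb and Ahsg no ratio was measured, and for Spp2 and Ambp only the minimum of 11.8-fold and 2.58-fold can be given. On the brightest probe sets, the minimum for Spp2 stood above the 8.70-fold of Afp and below the 14.8-fold and 14.4-fold of Ttr and Rbp4. On those probe sets the sizes of the rises thus overlapped between the classes. Against other Afp probe sets, the minimum lay above the 6.88-fold of 1436879_x_at and below the 20.7-fold of 1416646_at, so this order depends on the probe set. With 3 litters, a two-sided exact sign-flip test allows no p below 0.25.

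A common order of the embryos ran through the carriers. Among the 11 probe sets that rose, the difference was largest in litter 3 in all 11 and smallest in litter 1 in 10. Among all 843 probe sets that rose, the corresponding shares were 42.0% and 20.2%. The RFC1+/+ embryo of litter 1 was the highest of its genotype in 10 of the 11, against 24.4% of the 843. Litter 3 held the highest RFC1-/- embryo in all 11, against 67.0%, and litter 2 the lowest in 10, against 70.9%. Rises ranged from 0.82 to 3.66 in litter 1, from 1.06 to 4.12 in litter 2 and from 1.47 to 6.02 in litter 3. Probe sets of a gene, and genes measured on the same embryos, are not independent observations of these orders. Over all genes, the median difference was -0.01, and within litters it lay between -0.02 and 0.00.

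The gene with litter differences nearest to those of Ttr, among 18193 others, was Rbp4, at a root mean square distance of 0.13 on the log2 scale over 3 litters. For Rbp4 it was Ttr. Rhox5, a homeobox gene, was the next nearest to both, at 0.53 from Ttr and 0.48 from Rbp4, and was also nearest to Afp, at 0.65. Spink1 came next for Ttr at 0.64, and Apom, an apolipoprotein gene, came next for Rbp4 at 0.52. Cldn2 and Nxf7 followed Rhox5 for Afp, at 0.66 and 0.68. All distances used the brightest probe set of each gene. For Afp its litter differences were 1.77, 3.18 and 4.41, against 3.12, 3.97 and 6.02 on 1416646_at, so the genes named for Afp hold for that probe set only. Spp2 lay nearest to Apoc2, another apolipoprotein gene, at 0.30, then to Fgg, the fibrinogen gamma chain, at 0.41, and to 4933402E13Rik at 0.45. Ambp lay nearest to Misp3, Pla1a and Slc7a7, at 0.15, 0.15 and 0.16. Ambp, Spp2, Nxf7, Fgg, 4933402E13Rik, Misp3 and Pla1a had RFC1+/+ means not above the bound, so their litter differences are limited by background and their distances are approximate. Rhox5, Apom, Apoc2 and Spink1 were also listed here as visceral endoderm markers.

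The promoter sequences of Afp, Alb, Rbp4 and Spp2 are shown because Afp and Alb are adjacent genes that differed in these arrays, while Rbp4 and Spp2 are a fetal and a liver-stage carrier that both rose. Each is the 250 bases before the annotated start, 5′ to 3′ on the strand of the gene, from RefSeq on the C57BL/6J reference build GRCm38.p6, not the SWV strain of the embryos. Capitals mark matches to 6 short motifs searched on both strands. The HNF1 motif was GTTAAT, the FOXA motif TGTTTAC, the HNF4 motif CAAAGTCCA and the C/EBP motif TTGCNNAA. The motif for GATA factors was AGATAA, and the core of the TATA box was TATAAA. The windows are chr5:90490464-90490713 on the plus strand for Afp and chr5:90460620-90460869 on the plus strand for Alb. For Rbp4 the window is chr19:38124812-38125061 on the minus strand, before the annotated start with the lowest coordinate. For Spp2 it is chr1:88406760-88407009 on the plus strand.
Afp: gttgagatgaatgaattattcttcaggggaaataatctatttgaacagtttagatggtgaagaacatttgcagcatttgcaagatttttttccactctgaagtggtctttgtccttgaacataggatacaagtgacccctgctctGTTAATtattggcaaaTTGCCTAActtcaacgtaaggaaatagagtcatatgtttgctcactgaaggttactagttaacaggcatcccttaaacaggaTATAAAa
Alb: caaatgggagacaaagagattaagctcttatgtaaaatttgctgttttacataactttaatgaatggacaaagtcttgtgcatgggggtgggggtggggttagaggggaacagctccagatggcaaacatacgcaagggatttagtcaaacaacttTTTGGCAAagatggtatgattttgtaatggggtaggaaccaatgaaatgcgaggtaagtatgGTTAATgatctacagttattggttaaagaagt
Rbp4: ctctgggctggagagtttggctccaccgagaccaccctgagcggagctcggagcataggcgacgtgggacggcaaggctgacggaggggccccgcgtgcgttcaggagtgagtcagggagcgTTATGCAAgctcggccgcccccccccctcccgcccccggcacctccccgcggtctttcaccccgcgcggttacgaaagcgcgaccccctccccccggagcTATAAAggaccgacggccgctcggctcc
Spp2: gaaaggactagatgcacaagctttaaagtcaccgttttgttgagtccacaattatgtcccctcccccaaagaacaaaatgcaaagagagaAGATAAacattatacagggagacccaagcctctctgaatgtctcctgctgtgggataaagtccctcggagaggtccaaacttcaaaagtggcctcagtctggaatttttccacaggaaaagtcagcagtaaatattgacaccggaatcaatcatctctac

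Among the 6 carrier genes of the arrays with a promoter in the table, GTTAAT occurred in Afp and Alb, against 6.43% of 32851 promoter windows of this length. TTGCNNAA occurred in Afp, Alb, Ahsg and Rbp4, against 9.56%. TATAAA occurred in Afp and Rbp4, against 12.4%, and AGATAA in Spp2, against 9.99%. TGTTTAC matched, on the opposite strand, only at a second Rbp4 start, against 3.17%, and CAAAGTCCA matched in none, against 0.384%. The Ambp window held none of the 6. In Afp the capitals lie 105 to 100 (GTTAAT), 89 to 82 (TTGCCTAA) and 7 to 2 (TATAAA) bases before the start. In Alb they lie 94 to 87 (TTTGGCAA) and 32 to 27 (GTTAAT) bases before it. Afp and Alb, one of which rose and one of which was at background, thus shared matches to both GTTAAT and TTGCNNAA in these windows. No printed matches overlap, and a match of letters is not a measured binding site.

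Regulators known to act on Afp and Alb included several that rose. Of 12 measured genes of 14 listed, 6 were higher, 0 lower and 6 did not pass, with a median difference of 0.39. Hnf4a, a nuclear receptor of visceral endoderm and liver, read 6.73, 6.48 and 6.12 in RFC1+/+ and 8.13, 7.43 and 9.20 in RFC1-/- embryos. The genotypes did not overlap, and litter 3 held both the lowest RFC1+/+ and the highest RFC1-/- value (3.51-fold, SE 0.36 on the log2 scale, limma adjusted p = 0.0395). The forkhead factor genes Foxa1 and Foxa2 were 2.61-fold (limma adjusted p = 0.00798) and 1.89-fold (adjusted p = 0.0163) higher. Gata4 and Gata6, which encode zinc finger factors of endoderm, were 1.49-fold (adjusted p = 0.0252) and 1.43-fold (adjusted p = 0.0346) higher. Foxa3 passed with a difference of 0.71 (adjusted p = 0.0489), though neither genotype was shown to lie above background. Cebpa, at -0.03 (adjusted p = 0.954) and also below the bound, did not pass. Zhx2 and Zbtb20, which encode repressors of Afp in the postnatal liver, had differences of 0.13 and 0.25 (adjusted p = 0.724 and 0.389). Nr5a2, Cebpb and Onecut1 differed by 0.11, -0.06 and -0.14 and did not pass, and Onecut1 was below the bound in both genotypes. Without litter 1, Foxa1 alone of the 12 passed (adjusted p = 0.0136). Over all genes, 355 passed in that fit, against 968 with all litters, so a lost call there does not show a smaller difference. The difference of Hnf4a was 2.02 without litter 1, against 1.81 with it, and narrowly missed the threshold (limma adjusted p = 0.0510). Without litter 2 neither Gata4 nor Gata6 passed (adjusted p = 0.0863 and 0.130).

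Genes linked to uptake of the carriers were also measured, among them the endocytic receptors that visceral endoderm and kidney use to retrieve plasma carriers. Of 10 genes, 5 were higher, 0 were lower and 5 did not pass, with a median difference of 0.94. Cubn, which encodes the receptor cubilin, read 7.90, 5.23 and 5.27 in RFC1+/+ and 11.40, 10.06 and 12.39 in RFC1-/- embryos (35.5-fold, limma adjusted p = 0.00846). As with Afp, litter 1 held the highest RFC1+/+ value and litter 3 the highest RFC1-/- value. Its membrane partner Amn rose at least 8.14-fold (adjusted p = 0.0113), the adaptor Dab2 3.21-fold, the chaperone Lrpap1 2.20-fold, and Lrp2 (megalin), which takes up retinol binding protein, 1.77-fold (adjusted p = 0.0163). Fcgrt, the receptor that recycles albumin and IgG, read 6.16, 6.10 and 5.79 in RFC1+/+ and 7.04, 6.30 and 7.91 in RFC1-/- embryos, and its difference of 1.07 did not pass (adjusted p = 0.123), although it did without litter 2 (adjusted p = 0.0281). Stra6, which encodes the receptor for retinol-loaded Rbp4, had a difference of -0.17 (adjusted p = 0.497). The remaining genes Stra6l, Asgr1 and Asgr2 were below the bound in both genotypes and did not pass. Without litter 1, Lrp2 no longer passed.

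**Figure D3:**
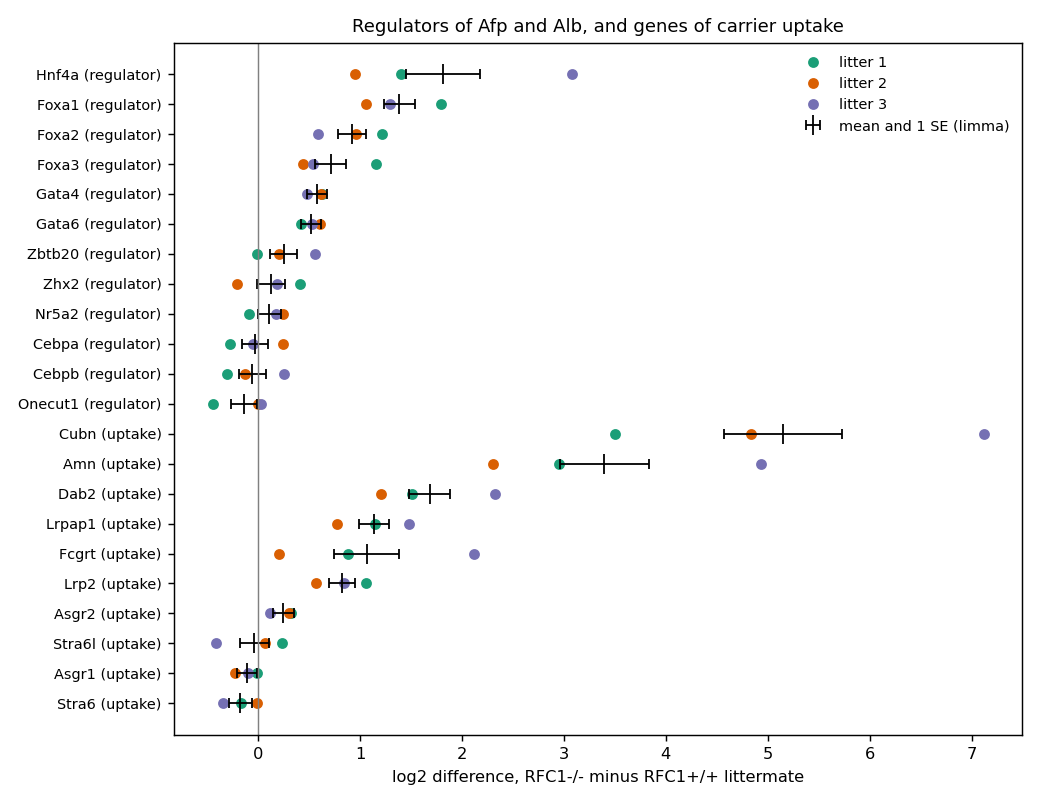
Log2 difference between each RFC1-/- embryo and its RFC1+/+ littermate for 12 regulators of Afp and Alb and 10 genes of carrier uptake, with 1 point for each litter. Black ticks and bars show the mean and 1 SE from limma. Cubn, Amn and Hnf4a spread most between litters, each with its largest difference in litter 3, and Cebpa, Zhx2 and Stra6 lie near 0.

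Most other plasma proteins did not pass the test. Of 23 measured genes of 29 listed, 3 were higher, 1 was lower and 19 did not pass, with a median difference of 0.00. Only 9 of the 23 had an RFC1+/+ mean above the bound, and 10 an RFC1-/- mean. For genes at background in both genotypes no ratio was measured, so the median does not show that these proteins were unchanged. Serpina1b and Serpina1c, of the alpha-1-antitrypsin family, were 2.34-fold (limma adjusted p = 0.00663) and 1.85-fold (adjusted p = 0.0223) higher. Their sequences are nearly identical to those of other family members, so the rise cannot be assigned to a single gene. Hpx, which encodes the heme carrier hemopexin, rose by 0.58 (adjusted p = 0.0305) from below the bound, a change of at least 1.01-fold. Cp, which encodes ceruloplasmin, fell by 0.74 (adjusted p = 0.0251). The difference of Tcn2, which encodes the cobalamin carrier transcobalamin, was 0.52 and missed the threshold (adjusted p = 0.0783), which it passed without litter 2 (adjusted p = 0.0418). Without litter 1, Serpina1b alone passed (adjusted p = 0.0174).

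For the cargo of the carriers, few genes passed. Among 7 genes of retinol handling, Bco1, which cleaves beta-carotene, was at least 2.26-fold higher (limma adjusted p = 0.0180). Crabp2, which encodes a cellular carrier of retinoic acid, fell by 0.76 (adjusted p = 0.0285), a call lost without litter 2. Among 9 genes of thyroid hormone handling, Crym, which encodes a cytosolic thyroid hormone binding protein, was lower by at least 1.49-fold (adjusted p = 0.0387), a call lost without litter 1, and the others did not pass. Among 6 genes of vitamin D handling, 0 passed in limma, 1 had an unadjusted p under 0.05, and the variation filter of the methods kept none for its own test. Background limits these counts. In RFC1+/+ embryos, 4 of the retinol genes, 5 of the thyroid hormone genes and 2 of the vitamin D genes had means above the bound. In RFC1-/- embryos the numbers were 5, 4 and 2.

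Most genes beside the carriers on the chromosomes did not pass. In the RefSeq gene order (GRCm38.p6), Ankrd17, Alb, Afp, Afm and Albfm1 lie side by side on chromosome 5. Afm, which encodes the vitamin E-binding protein afamin, had means of 5.52 and 5.99, a difference of 0.47 that did not pass (limma adjusted p = 0.262). Its differences in litters 1, 2 and 3 were 0.10, 0.22 and 1.08. Its genotypes did not overlap, with RFC1-/- higher, as in 9.81% of all probe sets. The RFC1+/+ mean lay close to the bound of 5.26, where differences are compressed. The differences of Ankrd17 and Albfm1 were 0.15 and 0.01, neither past the threshold. Ankrd17 and Afm, the neighbours in this row above background, thus had no call, and whether Afm shares in the rise of Afp was not tested. Alb and Albfm1 were not above background in either genotype, so their lack of a call sets no ratio. Over the 12 measured direct neighbours of the 7 genes, 2 were higher and 0 lower, against 3.67% and 1.65% of all genes tested. The 2 neighbours were Dsg2, a desmosomal cadherin gene beside Ttr (1.13, adjusted p = 0.012), and Pde6c, a cone phosphodiesterase gene beside Rbp4 (adjusted p = 0.031). The RFC1+/+ mean of Pde6c was 4.35, not above the bound, and its RFC1-/- mean of 5.21 did not reach the RFC1+/+ bound of 5.26, so no fold is given for it.

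Markers of visceral endoderm moved with the carriers. Of 18 measured markers of 19 listed, 18 were higher, with a median difference of 3.39. This list shares Cubn, Amn, Lrp2 and Dab2 with the uptake genes and Hnf4a with the regulators, and several of its genes were listed by the study from these samples. Its summed level was 11.74, 11.16 and 11.48 in the RFC1+/+ and 14.45, 13.50 and 15.34 in the RFC1-/- embryos of litters 1, 2 and 3. The order of the RFC1-/- embryos was that of the carriers, with litter 3 highest and litter 2 lowest, and litter 1 held the highest RFC1+/+ embryo in both. Without litter 1, 14 were higher. By group mean, all 18 exceeded the bound in RFC1-/- embryos, and 15 in RFC1+/+ embryos. Among these 15, Apoa4 exceeded it in only 1 RFC1+/+ array, and Cubn and Apob in 2. Measurable RNA of genes on this list was thus present in both genotypes, though not of every gene in every RFC1+/+ embryo. The study also saw cubilin and megalin protein in the neuroepithelium of RFC1+/+ embryos, so the products of Cubn and Lrp2 are not confined to visceral endoderm. For the other markers this was not examined. In RFC1-/- embryos the study found no megalin protein in the visceral yolk sac. It found more cubilin protein in their cranial mesenchyme and myocardium. The part of the amount of visceral endoderm in the rise of the carriers was not tested.

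Few markers of liver cells passed the test. Among 7 hepatocyte enzyme genes, 0 passed in limma, 2 had an unadjusted p under 0.05, and the variation filter kept 2 for the paired test of the methods, of which 0 passed. Without litter 1, Tdo2, which encodes tryptophan dioxygenase, passed as higher (adjusted p = 0.00420). None of the 7 had an RFC1+/+ mean above the bound. Their median difference was -0.03, and their summed level was 7.34 to 7.75 in RFC1+/+ and 7.66 to 8.68 in RFC1-/- embryos. Among 7 markers of hepatoblasts and liver bud, Hhex, which encodes a homeobox factor of early endoderm, was 2.31-fold higher (adjusted p = 0.0125) and 6 did not pass. Without litter 1, Dlk1 also passed as higher (adjusted p = 0.0431), and without litter 3, Onecut2 passed as lower (adjusted p = 0.0408). Prox1 and Onecut1 of that list were not shown to lie above background in either genotype. Alb, a defining product of hepatoblasts, was likewise at background in all 6 embryos.

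Other lists gave smaller or opposite values. Of 9 parietal endoderm markers, 4 were higher, with a median of 0.42, but 2 without litter 1 and 0 without litter 2. Of 8 markers of choroid plexus and roof plate, a site of Ttr expression in the brain, Clic6 was 5.60-fold higher (adjusted p = 0.00441) and 7 did not pass. Of these 7, Kcne2, Kl, Aqp1, Slc4a5 and Lmx1a were below the bound in both genotypes. Of 6 gut endoderm markers, Pax9 was 1.43-fold higher (adjusted p = 0.0483), a call lost without litter 1 or litter 2. Of 9 primitive erythroid markers, 8 were lower and 0 higher, with a median of -3.17. Their summed level was 14.80 to 15.35 in RFC1+/+ and 9.97 to 12.16 in RFC1-/- embryos. The RFC1-/- embryos were thus high in carriers and low in blood markers, and the litter with the deepest median difference of blood markers was litter 1, at -3.71, where the carriers differed least. Of 7 trophoblast and decidua markers, Plac1 was 2.84-fold higher and 6 did not pass. The decidual gene Prl8a2 read 11.17 in the RFC1+/+ embryo of litter 1 and between 4.49 and 7.84 in the other 5 embryos. That RFC1+/+ embryo also had the highest carrier levels of its genotype. The part of the remaining membranes, of the blood share and of decidua in the carrier differences was not tested. Without litter 1 the differences were 3.80 for Afp, 4.28 for Ttr, 4.21 for Rbp4, 4.54 for Spp2 and 1.70 for Ambp, each past the threshold. Litter 1 held the smallest difference of each of these genes, so leaving it out raises each mean by arithmetic alone.

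**Figure D4:**
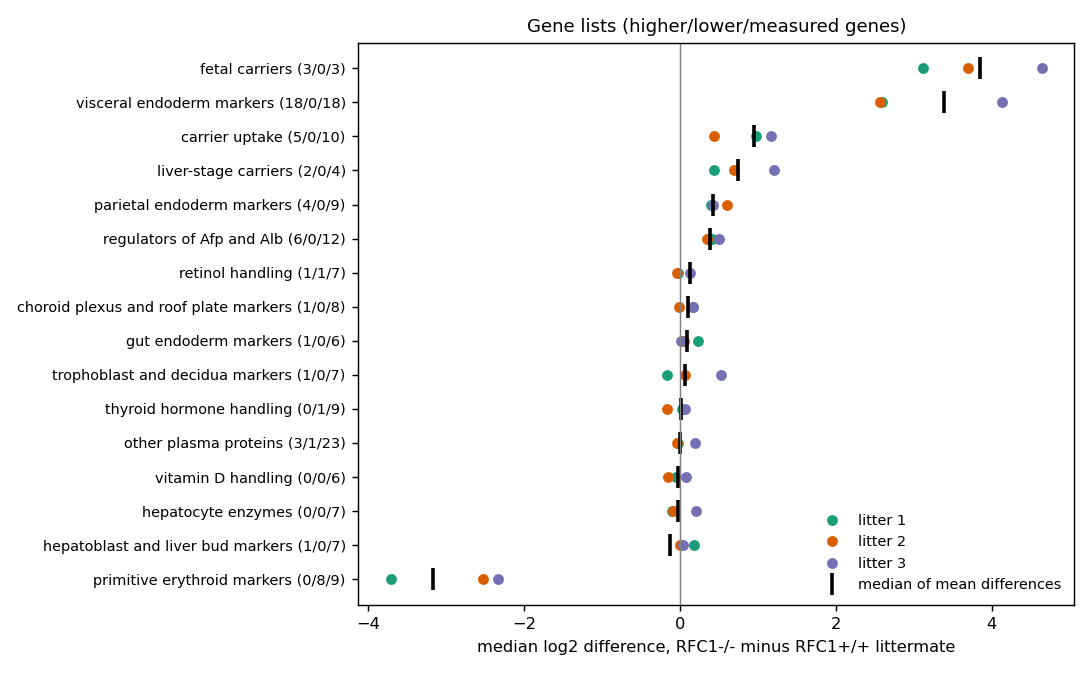
Median log2 difference between RFC1-/- and RFC1+/+ littermates over the genes of 16 lists, with 1 point for each litter and a black tick for the median of the mean differences. Numbers after each name give the genes higher, the genes lower and the genes measured. The fetal carriers and visceral endoderm markers lie furthest to the right and the primitive erythroid markers furthest to the left, and most other lists lie within 1 unit of 0.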

How the data were processed

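RNA of 6 whole embryos was measured on 6 arrays, grouped by genotype and litter as labelled. The authors deposited log2 expression values for 45101 probe sets, made with RMA as their methods state: background correction of perfect match probes, quantile normalization and median polish. RMA draws arrays towards a common distribution and compresses differences near background and near saturation (array maxima 14.73 to 14.78). The sources used here give no software version for RMA. Arrays give no read depth, and their number limits the precision.

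Differences (RFC1-/- minus RFC1+/+) were fitted in limma with a litter block over the whole table, and adjusted by the Benjamini-Hochberg method (R 4.3.3, limma 3.58.1). The methods name a random-variance paired test after a 1.5-fold variation filter, which was run as an alternative. A second fit used 18194 genes, each on the probe set with the highest mean over 6 arrays. Gene names came from the platform annotation (34958 with 1 symbol, 932 with several, 9211 with none), and of those with 1 symbol 34754 matched the RefSeq table. Where a group was not above background, the fold was set against the background bound. The fits were tested on simulated data. Littermates are paired because the labels and methods place them in the same litter. The correlations of their deviations were 0.10, -0.05 and -0.15 in litters 1, 2 and 3. Tables and plots used Python 3.11.15 with pandas 2.3.3, numpy 2.4.6 and matplotlib 3.10.9.

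The members, the gene lists and the rule for named genes were chosen with earlier results of these data known. The rule was all members on every probe set, from each list up to 4 genes past the threshold with the largest difference and all those opposite to most, all uptake and regulator genes, and for each member past the threshold the 3 genes with the nearest litter differences. Neighbouring genes and the list genes below the threshold that are named beside them fall outside this rule and were chosen after values were seen. Alternatives were other filters, normalizations, variance models, probe set rules, no litter block, and each litter left out. Listed genes lacking a probe set to themselves, Gc among them, were not analysed here.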

Additional observations from a re-analysis of the deposited data

How the results depend on the processing

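The count of carrier probe sets past the threshold was 11, and that of carrier genes 5, under every alternative run except those named here. With the methods' t-test, 11 probe sets and 5 genes passed at an adjusted p under 0.05 but 0 and 0 at the 0.001 level of the methods, where 0 of all 2982 probe sets kept by the filter passed. The lowest adjusted p of a carrier probe set there was 0.00226, and of a carrier gene 0.00409. That run fitted the prior of the variances on the probe sets or genes kept by the filter, and the methods do not say which were used. With the prior fitted on all probe sets, a choice added after seeing the data, 9 carrier probe sets and 5 carrier genes passed at 0.001, with 288 of the 2982 probe sets, and 11 and 5 at 0.05, with 1824. The outcome of this test at 0.001 therefore depends on that prior. With the prior fitted on all probe sets, the number of probe sets passing at this level equals the number the study reports. With the prior fitted on the kept probe sets it does not. The gap between fetal and liver-stage medians was 3.11, and fell to 1.02 with the variation filter and with dim probe sets left out, since both settings remove Alb and Ahsg. The differences of the liver-stage carriers are limited by background in both cases. Leaving out each litter gave 10 to 11 probe sets, 5 to 5 genes and a gap of 2.86 to 3.31. Without the replicate block the values were 11, 5 and 3.11, and no call of a carrier changed with this pairing. The differences of Afp, Ttr, Rbp4, Spp2 and Ambp kept their direction and stayed past 0.05 in 13 alternatives each. The difference of Afp ranged from 2.23 to 4.37, of Ttr from 3.52 to 4.28, of Rbp4 from 3.42 to 4.21 and of Ambp from 1.26 to 1.70. Spp2 ranged from 2.01, as the mean of its probe sets, to 4.54. Those of Alb, -0.15 to 0.09, and Ahsg, -0.45 to -0.07, stayed short of the threshold in 9 alternatives each. Counts over all probe sets were less stable, with 1241 past the threshold in the main fit, 129 without litter 1, 841 without litter 2, 1585 without litter 3, 491 with the variation filter and 610 with the methods' t-test. Over all genes they were 968, 355, 754, 1199, 537 and 477 in the same order. Values near background limit what could be seen of Alb, Ahsg and the dim probe sets of Afp and Spp2.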
